A study of Homo sapiens with 6 samples.

Results

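The ERBB receptor tyrosine kinases and their EGF-family ligands were followed in TFK1 cells with and without STUB1 overexpression. The 10 genes were chosen by symbol, with earlier results of these data known. They were the receptors EGFR, ERBB2, ERBB3 and ERBB4 and the ligands AREG, EREG, HBEGF, TGFA, BTC and NRG1. All 10 were listed among the 23569 genes of the expression table. TFK1 is a cancer cell line from an extrahepatic bile duct carcinoma. The oeNC group was the negative control (n = 3 libraries) and the oeSTUB1 group overexpressed STUB1, a ubiquitin ligase (n = 3). According to the study's methods, lines of this kind were made by lentiviral transduction of a pHAGE construct and antibiotic selection. The text names no further treatment of the sequenced cells of either group. Each group was 1 stable cell population as far as the text tells, so effects of STUB1 and of the population cannot be told apart. The study sequenced RNA to look for genes regulated through STUB1, UHRF1 and DNMT1. The study's statistics section speaks in general of independent repeats, but no label says whether these libraries came from separate cultures, and p-values measure only the spread between them.

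As background, ERBB receptors sit in the plasma membrane, pair after ligand binding and signal through their kinase domains to the RAS/ERK and PI3K/AKT pathways. ERBB2 has no known ligand and ERBB3 has a weak kinase, so that they act mainly as partners within pairs. AREG, EREG, HBEGF, TGFA and BTC bind EGFR, of which EREG, HBEGF and BTC also bind ERBB4, while NRG1 binds ERBB3 and ERBB4. The ligands are made as membrane proteins and released by proteases. In bile duct epithelium and its carcinomas this family is known for its part in growth and repair.

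Values are FPKM, which scale fragments to gene length and library total. Levels compare between genes only as far as the length used for a gene fits the transcripts expressed, which the values do not show. Differences are log2 fold changes of oeSTUB1 against oeNC on the log2(FPKM + 0.1) scale, which understates the changes of low genes. They were tested with limma over the 15353 genes that averaged at least 0.1 FPKM, and called when the p-value after Benjamini-Hochberg adjustment was under 0.05, or past both thresholds when the absolute log2 fold change was also over 1. The 6 libraries held between 33106564 and 36744521 fragments. STUB1 was at 32.9, 33.0 and 30.9 FPKM in oeNC and at 61.4, 75.0 and 61.9 FPKM in oeSTUB1, a log2 fold change of 1.03 (limma adjusted p = 0.000642). oeSTUB1 replicate 2 stood apart from its group, where chi-square values per degree of freedom were 82.6 and 76.7 against replicates 1 and 3, and 10 between those. Of 10 bile duct epithelium markers 9 were listed. Their summed level ranged from 7432 to 8008 FPKM in the oeNC libraries and from 4734 to 6273 FPKM in the oeSTUB1 libraries, carried by KRT8 and KRT18, which were both called lower. KRT19 went the other way, from 0.374 to 0.529 FPKM in oeNC libraries, close to absent, to between 2.51 and 3.41 FPKM in oeSTUB1 libraries (log2 fold change 2.47, limma adjusted p = 0.000176). KRT7 averaged 502 and 704 FPKM, with no overlap between the groups (limma adjusted p = 0.0818). Hepatocyte markers summed to 111 to 116 FPKM for oeNC and 38.5 to 58.5 FPKM for oeSTUB1, mostly CPS1. The 3 of them that were tested were lower in oeSTUB1 past both thresholds. These were CPS1 (log2 fold change -1.17, limma adjusted p = 0.00313), ASGR1 (-2.45, limma adjusted p = 0.000635) and HNF4A (-1.05, limma adjusted p = 0.00182). APOA2, TTR and CYP3A4 had at most 3 fragments in every library. Leukocyte markers summed to 32.4 to 35.0 and 26.1 to 26.7 FPKM, mostly CD68, fibroblast markers to at most 4.05 FPKM and endothelium markers to at most 0.275 FPKM in any library. The fibroblast sum was mostly COL1A1, which averaged 1.62 FPKM in oeNC and 2.81 FPKM in oeSTUB1 (log2 fold change 0.75, limma adjusted p = 0.12). COL3A1 and THY1, with at most 19 fragments per library, were higher in oeSTUB1 without overlap. LUM was lower without overlap (limma adjusted p = 0.0826). COL1A2, DCN, VWF and KDR had at most 3 fragments in every library. The part of these markers in the results was not tested.

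The members called were 3 ligands that rose and 2 receptors that fell in oeSTUB1 cells. Of the 9 members above the filter, TGFA, NRG1 and BTC were higher and ERBB3 and ERBB2 lower in oeSTUB1 at an adjusted p-value under 0.05, while EGFR, AREG, EREG and HBEGF were not called. Over all tested genes, 7.01% were called higher and 6.59% lower, and both counts of members are above these shares. As the members were chosen with earlier results of these data known, counts above the shares are a description and no test of the set. Past both thresholds were TGFA and NRG1 (higher) and ERBB3 (lower), against 2.79% and 2.4% of all tested genes, or 5.2% in either direction. Among the 9 tested members, the libraries of the groups did not overlap in 5 higher and 2 lower in oeSTUB1. Over all tested genes the shares without overlap were 21.5% higher and 17.3% lower, or 38.8% in either direction. ERBB4, which was not tested, was also lower without overlap, on at most 7 fragments per library. The median log2 fold change of the 9 members was 0.43, against 0.02 over all tested genes. Without oeSTUB1 replicate 2 the members called were 4 higher and 2 lower, against a background of 14.8% and 12.0%. In bulk RNA, fewer cells that express a gene and less RNA per cell cannot be told apart.

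**Figure D1:**
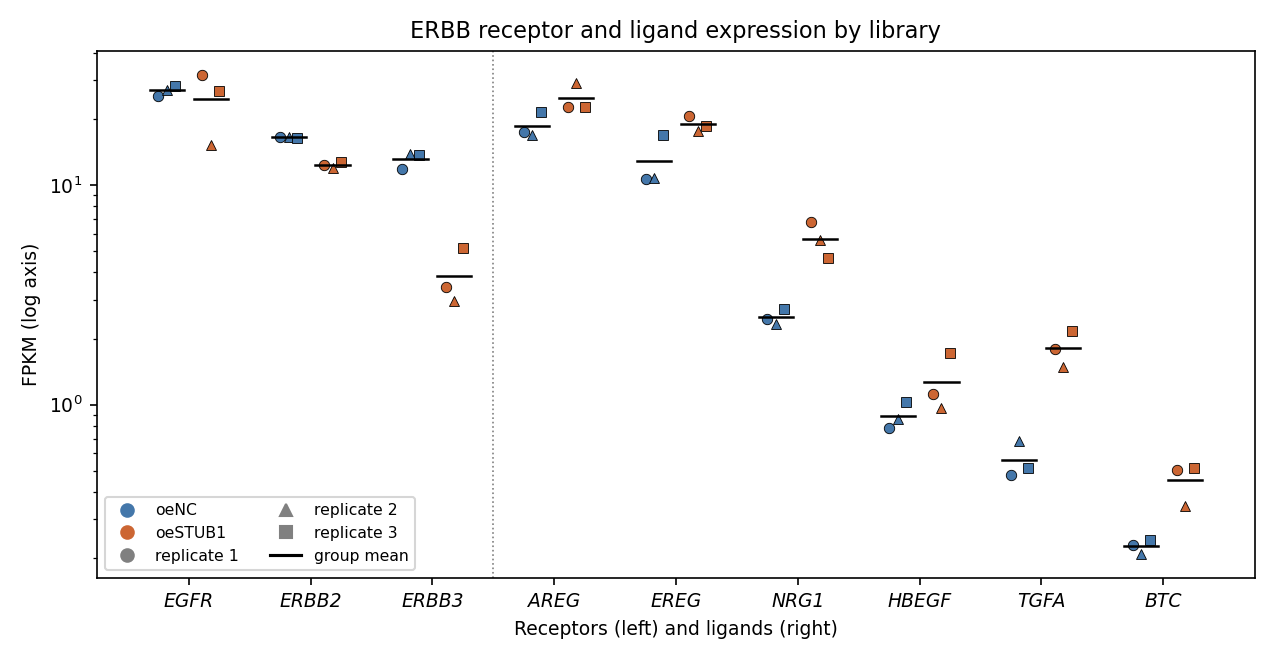
FPKM on a log axis in each of the 6 libraries for the 9 members above the filter, receptors on the left and ligands on the right. Points are libraries (blue oeNC, orange oeSTUB1, the shape gives the replicate) and bars are group means. The oeSTUB1 points lie below all oeNC points for ERBB2 and ERBB3 and above them for AREG, EREG, NRG1, TGFA and BTC, and ERBB4, under 0.02 FPKM in every library, is not drawn.

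**Figure D2:**
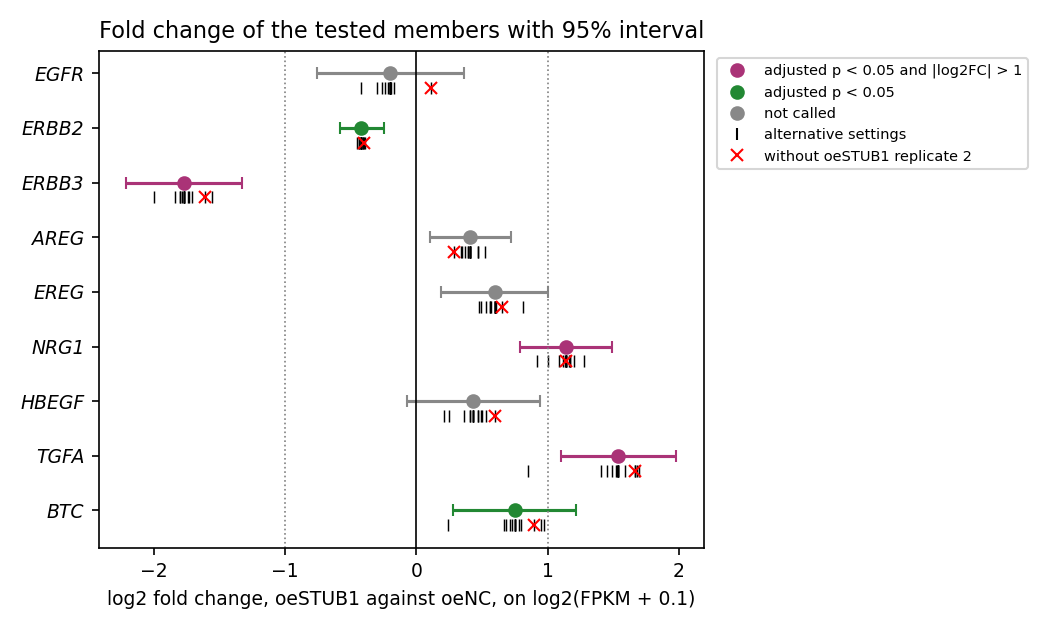
Log2 fold change of oeSTUB1 against oeNC for the 9 tested members, with points for the estimate, bars for its 95% confidence interval and ticks below for the alternative settings. ERBB3 at -1.77, NRG1 at 1.14 and TGFA at 1.54 lie past the dotted lines at 1 and -1, and for EGFR the value without oeSTUB1 replicate 2 (cross) lies on the other side of 0.

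Among the receptors, ERBB3 showed the largest fall. ERBB3, the neuregulin receptor and main PI3K-coupling partner of the family, is at chr12:56076799-56103505, plus strand (positions here and below from GENCODE release 29 on GRCh38). It was at 11.8, 13.8 and 13.7 FPKM in oeNC and at 3.45, 2.97 and 5.17 FPKM in oeSTUB1. These values rested on 2508 to 3079 fragments in the oeNC libraries and 600 to 1080 in the oeSTUB1 libraries. All oeSTUB1 libraries were lower, with replicate 3 the highest among them. The group means were 13.1 ± 1.10 and 3.86 ± 1.16 FPKM (SD, n = 3 each), 3.39-fold lower, with a log2 fold change of -1.77 (95% confidence interval -2.21 to -1.33, limma adjusted p = 0.00113). ERBB3 was called under each of the 15 alternatives, with log2 fold changes from -2 to -1.56.

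ERBB2, the partner without a ligand of its own, fell by less but with little spread. It lies on chromosome 17 from 39687914 to 39730426 on the plus strand. It was at 16.5, 16.6 and 16.4 FPKM in oeNC and at 12.3, 12.0 and 12.7 FPKM in oeSTUB1. The libraries within each group were close together, and the groups were apart. The means were 16.5 ± 0.140 and 12.3 ± 0.366 FPKM (SD, n = 3 each), 0.748 of the control level, with a log2 fold change of -0.42 (95% confidence interval -0.58 to -0.25, limma adjusted p = 0.00844). The call was lost without oeNC replicate 1 (limma adjusted p = 0.0577) and without oeNC replicate 2 (limma adjusted p = 0.0625). Exons of ERBB2 overlap those of MIEN1 and PGAP3 in antisense, and the strand setting of the counting is not given in the sources used here. MIEN1 had a log2 fold change of -0.10 (limma adjusted p = 0.648) and PGAP3 of -0.28 (limma adjusted p = 0.135).

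EGFR, the receptor of most of the ligands listed here, was the most abundant member in oeNC cells. It lies on chromosome 7 from 55019021 to 55211628 on the plus strand. Its expression was 25.5, 27.2 and 28.3 FPKM in oeNC and 31.8, 15.2 and 26.7 FPKM in oeSTUB1. The oeSTUB1 libraries lay on both sides of the control libraries, with replicate 1 above all of them and replicate 2 below. The log2 fold change was -0.20 (95% confidence interval -0.76 to 0.36, limma adjusted p = 0.618), with means of 27 ± 1.38 and 24.6 ± 8.51 FPKM (SD, n = 3 each). Without oeSTUB1 replicate 2 the direction turned, to 0.11 (limma adjusted p = 0.351). EGFR-AS1, which overlaps EGFR exons on the opposite strand, had 2 fragments in oeNC replicate 2 and 0 in the other libraries.

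ERBB4, a neuregulin receptor on chromosome 2 from 211375717 to 212538841 on the minus strand, was near the detection limit. The oeNC libraries held 7, 5 and 7 fragments and the oeSTUB1 libraries 1, 0 and 1. Summed over the libraries and scaled to their totals, the ratio of oeSTUB1 to oeNC was 0.11 (exact 95% confidence interval 0.0124 to 0.455, which covers counting error only). Its mean of 0.00788 FPKM was below the filter, so it was not tested in the main comparison. With no filter its adjusted p-value from limma was 0.146.

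The make-up of the receptor transcripts was described by sums. Summed over the 4 receptors, the level was 53.9, 57.6 and 58.4 FPKM in oeNC and 47.5, 30.2 and 44.7 FPKM in oeSTUB1. ERBB3 made up 22.0%, 23.9% and 23.5% of that sum in oeNC and 7.26%, 9.84% and 11.6% in oeSTUB1. The ERBB2 share overlapped between the groups (28.0% to 30.6% and 25.8% to 39.8%), and the EGFR share ranged from 47.2% to 48.5% for oeNC and from 50.3% to 66.9% for oeSTUB1. The ratio of ERBB3 to ERBB2, which form a pair active in many carcinomas, ranged from 0.718 to 0.839 for oeNC and from 0.247 to 0.407 for oeSTUB1. These shares and ratios are descriptions and were given no test.

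Among the ligands, TGFA and NRG1 showed the largest rises. TGFA, a ligand of EGFR, lies on chromosome 2 from 70447280 to 70554193 on the minus strand. It was at 0.480, 0.685 and 0.516 FPKM in oeNC and at 1.80, 1.48 and 2.17 FPKM in oeSTUB1, resting on 73 to 104 and 215 to 325 fragments per library. The lowest oeSTUB1 library was above the highest control library. The means were 0.560 ± 0.109 and 1.82 ± 0.345 FPKM (SD, n = 3 each), 3.25-fold higher, with a log2 fold change of 1.54 (95% confidence interval 1.10 to 1.98, limma adjusted p = 0.00205). TGFA was called under each of the 15 alternatives. Its log2 fold change ranged from 0.85, with a pseudocount of 1, to 1.70, and the value of 0.85 is short of the fold threshold.

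EREG, AREG and BTC lie close together on chromosome 4, within 429544 bases. EREG spans 74365143 to 74388751 and AREG 74445134 to 74455009 on the plus strand, and BTC spans 74744759 to 74794686 on the minus strand. The stretches just upstream of their first exons are shown because these neighbours all had higher mean levels in oeSTUB1, with adjusted p-values on both sides of the threshold. They run 5′ to 3′ on the strand of the gene, are taken from RefSeq promoter windows on GRCh38.p14 and end before the annotated first exon. The windows reach from 250 bases before to 50 after the start, and 8 of the 10 members had an entry, with 10 windows in all. Capitals mark matches to TATAAA, TGACGTCA or GGGCGG on either strand.
EREG, chr4:74364895-74365142, plus strand: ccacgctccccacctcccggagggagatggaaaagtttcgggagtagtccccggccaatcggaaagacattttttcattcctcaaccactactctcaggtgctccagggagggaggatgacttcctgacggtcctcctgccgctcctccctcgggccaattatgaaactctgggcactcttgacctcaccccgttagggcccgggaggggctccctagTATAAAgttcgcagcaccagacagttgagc
AREG, chr4:74444886-74445133, plus strand: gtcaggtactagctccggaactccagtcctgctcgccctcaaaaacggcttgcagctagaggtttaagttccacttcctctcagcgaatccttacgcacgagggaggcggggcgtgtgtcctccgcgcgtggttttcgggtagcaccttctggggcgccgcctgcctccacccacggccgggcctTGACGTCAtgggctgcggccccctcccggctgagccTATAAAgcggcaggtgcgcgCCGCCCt
BTC, chr4:74794687-74794773, minus strand: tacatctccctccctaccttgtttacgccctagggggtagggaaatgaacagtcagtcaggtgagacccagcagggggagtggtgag

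In the whole windows, EREG held TATAAA from position -32, with the annotated start at 0, and AREG from position -29, a motif found in 11.5% of 35116 promoter windows of the same length. AREG also held TGACGTCA, found in 1.85% of the windows, from position -65. GGGCGG, found in 45.0% of the windows, was matched from position -9 in AREG, from position 22 in BTC and not in EREG. TGANTCA, found in 7.71% of the windows, had no match in these 3. CpG sites numbered 12 in EREG, 27 in AREG and 12 in BTC, against a median of 14. Among the other members HBEGF held 5 matches to GGGCGG and 38 CpG sites, and the window at the first EGFR exon 3 matches and 33 CpG sites. Overlapping matches were counted separately, as for HBEGF. A match describes letters and is not a binding site.

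BTC, betacellulin, was the least abundant tested ligand. It was at 0.229, 0.209 and 0.242 FPKM in oeNC and at 0.502, 0.346 and 0.513 FPKM in oeSTUB1, on 31 to 38 and 49 to 75 fragments. The groups did not overlap, and oeSTUB1 replicate 2 was the nearest to the controls. The means were 0.226 ± 0.0165 and 0.453 ± 0.0934 FPKM (SD, n = 3 each), 2.00-fold higher, with a log2 fold change of 0.75 (95% confidence interval 0.28 to 1.22, limma adjusted p = 0.0488). The call stood close to the threshold and held in 5 of the 14 alternatives that kept the gene, with adjusted p-values from 0.0158 to 0.162. It was lost when any single library was left out other than oeSTUB1 replicate 2 (limma adjusted p = 0.115 to 0.162).

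AREG and EREG, ligands of EGFR with low affinity, made up most of the ligand transcripts in every library. AREG was at 17.4, 16.9 and 21.6 FPKM in oeNC and at 22.7, 29.1 and 22.7 FPKM in oeSTUB1. EREG was at 10.7, 10.8 and 16.9 FPKM in oeNC and at 20.6, 17.7 and 18.6 FPKM in oeSTUB1. For both genes oeNC replicate 3 was the highest control library, and all oeSTUB1 libraries lay above it. AREG had a log2 fold change of 0.41 (95% confidence interval 0.10 to 0.72, limma adjusted p = 0.0839) and was called in 0 of the 15 alternatives. Its unadjusted p from limma was 0.0158. EREG had a log2 fold change of 0.60 (95% confidence interval 0.19 to 1.00, limma adjusted p = 0.0627). It was called without oeNC replicate 3 (0.81, limma adjusted p = 0.00784) and without oeSTUB1 replicate 2 (0.65, limma adjusted p = 0.0427). HBEGF, heparin-binding EGF on chromosome 5 from 140332843 to 140346631 on the minus strand, was at 0.782, 0.856 and 1.03 FPKM in oeNC and 1.12, 0.961 and 1.71 FPKM in oeSTUB1. The groups overlapped, and the log2 fold change was 0.43 (95% confidence interval -0.07 to 0.94, limma adjusted p = 0.230).

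NRG1, neuregulin 1, a ligand of ERBB3 and ERBB4, lies on chromosome 8 from 31639386 to 32767959 on the plus strand. It was at 2.45, 2.32 and 2.73 FPKM in oeNC and at 6.80, 5.62 and 4.63 FPKM in oeSTUB1. Fragments numbered 787 to 985 in the oeNC libraries and 1550 to 2296 in the oeSTUB1 libraries. The groups did not overlap, and oeSTUB1 replicate 1 was the highest. The means were 2.5 ± 0.214 and 5.68 ± 1.09 FPKM (SD, n = 3 each), 2.27-fold higher, with a log2 fold change of 1.14 (95% confidence interval 0.79 to 1.49, limma adjusted p = 0.00271). NRG1 was called under each of the 15 alternatives, with log2 fold changes from 0.92, with a pseudocount of 1, to 1.28. The many transcript forms of NRG1 were not resolved in the table. Set against its receptor, the ratio of NRG1 to ERBB3 in FPKM was 0.207, 0.168 and 0.199 in oeNC and 1.97, 1.89 and 0.894 in oeSTUB1, a description with no test.

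Summed over the 6 ligands, the level was 32.0, 31.7 and 43.0 FPKM in oeNC and 53.5, 55.1 and 50.4 FPKM in oeSTUB1. The ratio of this sum to the receptor sum was 0.595, 0.551 and 0.736 in oeNC and 1.13, 1.83 and 1.13 in oeSTUB1, so that the groups did not overlap. AREG and EREG together held 87.2% to 89.5% of the ligand sum in oeNC and 80.9% to 84.7% in oeSTUB1. NRG1 held 6.36% to 7.63% and 9.19% to 12.7%, and TGFA 1.2% to 2.16% and 2.69% to 4.31%. The 2 ligands with the largest fold changes thus remained a small part of the sum. The sums weigh transcripts by level alone and were given no test.

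**Figure D3:**
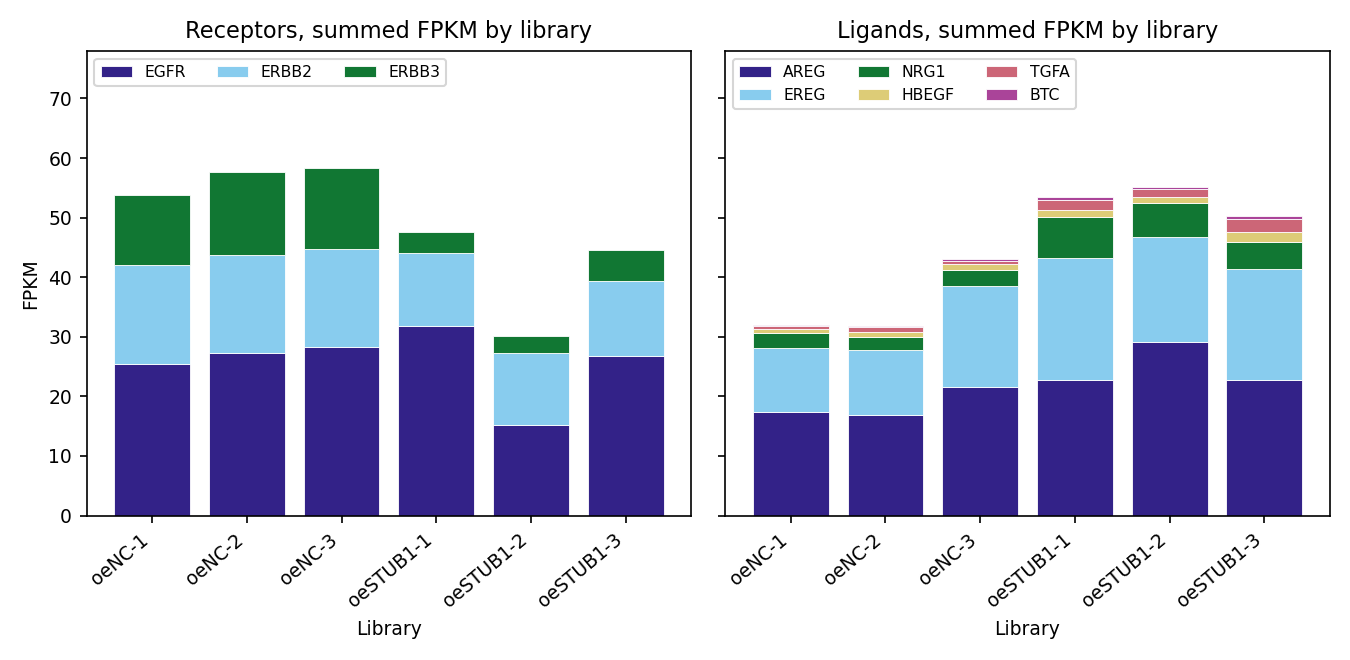
Stacked FPKM of the receptors EGFR, ERBB2 and ERBB3 (left) and of the 6 ligands (right) in each library, from 0. Receptor bars reach 53.9 to 58.4 FPKM in oeNC and 30.2 to 47.5 FPKM in oeSTUB1, and ligand bars 31.7 to 43.0 and 50.4 to 55.1 FPKM. ERBB4 adds under 0.02 FPKM and is not drawn.

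The order of levels changed with these differences. In oeNC cells it ran from EGFR (27 FPKM) over AREG (18.6), ERBB2 (16.5), ERBB3 (13.1), EREG (12.8), NRG1 (2.5), HBEGF (0.889), TGFA (0.560) and BTC (0.226) to ERBB4 (0.0142). Of these neighbours, ERBB3 and EREG overlapped in their libraries. In oeSTUB1 cells AREG (24.8 FPKM), EGFR (24.6) and EREG (19.0) came first, where AREG overlapped with EGFR and EGFR with EREG. ERBB2 (12.3) followed, apart from EREG, then NRG1 (5.68) and ERBB3 (3.86), which overlapped, TGFA (1.82) and HBEGF (1.26), which also overlapped, BTC (0.453) and ERBB4 (0.00155). Over all libraries the mean FPKM of EGFR stood at the 90.9 percentile of the listed genes, that of TGFA at the 53.2 and that of BTC at the 43.6 percentile.

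The genes nearest in pattern over the 6 libraries were sought for the members past both thresholds, by the root mean square difference of log2 values centred on each gene's mean. For ERBB3 they were ARRB1 (difference 0.058), FRMD4B (0.111) and PARM1 (0.120). ARRB1 encodes beta-arrestin 1, an adaptor in receptor internalization, and was at 16.2, 16.8 and 17.4 FPKM in oeNC and at 4.55, 3.86 and 6.32 FPKM in oeSTUB1. For TGFA they were GLP2R (0.101), COL4A5 (0.149) and CD38 (0.161), and for NRG1 HOXC4 (0.079), DCBLD1 (0.113) and MIR503HG (0.124). As these genes were picked for their likeness, their values carry no test.

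The other genes of the pathway were described by lists of their roles. Of 5 further ERBB ligands, NRG3 was not among the listed genes, and EGF and EPGN were below the filter. NRG2 had a log2 fold change of -0.07 and NRG4 of -0.12, and neither was called, and their libraries overlapped between the groups. EGF itself was covered by 27, 24 and 24 fragments in oeNC and 12, 16 and 33 in oeSTUB1, which overlapped.

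Of 12 genes of ligand shedding, 11 were tested, and 1 was higher and 1 lower, with a median log2 fold change of 0.11. ADAM19, a metalloprotease known to process neuregulins, was at 1.33, 1.34 and 1.21 FPKM in oeNC and at 3.72, 2.47 and 2.32 FPKM in oeSTUB1. All oeSTUB1 libraries were higher, replicate 1 most, and the log2 fold change was 1.05 (limma adjusted p = 0.00918). ADAM17, the protease that releases TGFA, AREG, EREG and HBEGF, was at 18.7, 19.3 and 20.1 FPKM in oeNC and at 13.2, 11.7 and 13.6 FPKM in oeSTUB1. It fell by 0.59 on the log2 scale (limma adjusted p = 0.00388). ADAM9, the most abundant of the list, was at 120 ± 1.54 and 118 ± 8.99 FPKM (SD, n = 3 each) and overlapped between the groups. Without oeSTUB1 replicate 2, 6 genes of this list were called higher and 1 lower, against 14.8% and 12.0% of all tested genes in that fit.

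Of 22 genes that restrain the receptors, 21 were tested, with 0 higher, 1 lower and a median log2 fold change of -0.04. The gene that fell was ERRFI1 (MIG6), an inhibitor of EGFR and ERBB2 kinases that growth factor signals induce. It was at 50.2, 51.6 and 79.3 FPKM in oeNC and at 30.4, 27.1 and 34.0 FPKM in oeSTUB1, and oeNC replicate 3 was the highest. The log2 fold change was -0.96 (limma adjusted p = 0.0122), and -0.74 without oeNC replicate 3 (limma adjusted p = 0.0161). The LRIG, CBL, SPRY and SOCS genes of the list that were tested were not called. TSG101, a sorting factor for internalized receptors and the most abundant of the list over all libraries, had a log2 fold change of -0.04.

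Of 30 adaptors and kinases, 29 were tested, and 2 were higher and 3 lower, with a median of 0.06. GAB2, an adaptor that carries receptor signals to PI3K, was at 2.53, 2.40 and 3.25 FPKM in oeNC and at 1.25, 0.627 and 1.22 FPKM in oeSTUB1. The groups did not overlap, and the log2 fold change was -1.36 (limma adjusted p = 0.0119), but the call was lost without oeNC replicate 3 (-1.23, limma adjusted p = 0.0565). STAT3, a transcription factor, rose from 21.8 ± 0.683 to 33.2 ± 4.73 FPKM, and the kinase SRC fell from 61.2 ± 1.36 to 41.3 ± 6.04 FPKM (SD, n = 3 each). MAP2K1 (MEK1) was called higher by 0.32 on the log2 scale and MAPK3 (ERK1) lower by a log2 fold change of -0.43. STAT3 lost its call without oeNC replicates 1 or 3 (limma adjusted p = 0.0601 and 0.0567) and SRC without any single one of the oeNC replicates (0.0571 to 0.0624). MAP2K1 and MAPK3 lost theirs when any single library was left out other than oeSTUB1 replicate 2 (0.0519 to 0.147 and 0.0778 to 0.126). With all libraries, both also lost the call with eBayes without a trend (limma adjusted p = 0.0695 and 0.0582). MAP2K1 lost it with the replicate number as a block as well (limma adjusted p = 0.0875). SHC1, the most abundant gene of the list, had a log2 fold change of 0.27 (limma adjusted p = 0.0641), and was called without oeSTUB1 replicate 2 (0.31, limma adjusted p = 0.00416).

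Of 12 genes that respond to ERK activity, all 12 were tested, with 1 higher, 2 lower and a median log2 fold change of -0.04. SPRED3, of a family of ERK pathway inhibitors, was at 1.44, 1.52 and 1.29 FPKM in oeNC and at 0.668, 0.473 and 0.735 FPKM in oeSTUB1. It fell by 1.08 on the log2 scale (limma adjusted p = 0.00723). ETV4, a transcription factor, fell from 23.2 ± 1.52 to 15.9 ± 1.47 FPKM, and EPHA4, a receptor kinase, was called higher, from 0.313 ± 0.0426 to 0.675 ± 0.196 FPKM (SD, n = 3 each). The call of EPHA4 was lost when any single library was left out other than oeSTUB1 replicate 2 (limma adjusted p = 0.101 to 0.141). It was also lost with no filter (limma adjusted p = 0.0913) and with the replicate number as a block (limma adjusted p = 0.0851). CCND1, the most abundant of the list, had a log2 fold change of 0.15 (limma adjusted p = 0.306) and was called without oeSTUB1 replicate 2 (0.23, limma adjusted p = 0.0301). DUSP6 and EGR1 overlapped between the groups.

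Of 16 co-receptors and modifiers, 15 were tested, with 3 higher, 0 lower and a median of 0.02. CD44, a matrix receptor, rose from 43.4 ± 3.21 to 67.2 ± 8.34 FPKM (log2 fold change 0.62, limma adjusted p = 0.00887). MUC1, a membrane mucin, rose from 1.16 ± 0.116 to 2.01 ± 0.105 FPKM (0.75, limma adjusted p = 0.00778). CD9, a tetraspanin, rose from 28.9 ± 1.00 to 37.8 ± 3.55 FPKM (SD, n = 3 each for these genes). CD44 lost its call without oeNC replicate 1 (limma adjusted p = 0.0512), and CD9 without any single one of the oeNC replicates (0.0882 to 0.118). With all libraries, CD9 also lost it with eBayes without a trend (limma adjusted p = 0.0596). ANXA1, the most abundant, was at 1811 ± 100 and 1384 ± 163 FPKM with a log2 fold change of -0.39 (limma adjusted p = 0.0843). It was called with limma-voom (adjusted p = 0.0423), with quantile normalization (limma adjusted p = 0.0244) and without oeSTUB1 replicate 2 (limma adjusted p = 0.00159). The counts of these lists stand against 13.6% of all tested genes called in either direction. Without oeSTUB1 replicate 2, 2 higher and 2 lower genes were called among those that restrain the receptors, 7 and 3 among the adaptors and kinases, 3 and 3 among the ERK responders and 4 and 2 among the co-receptors and modifiers. In that fit 14.8% of all tested genes were called higher and 12.0% lower. Genes named from these lists with an absolute log2 fold change under 1, the most abundant ones apart, were chosen after their values were seen.

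**Figure D4:**
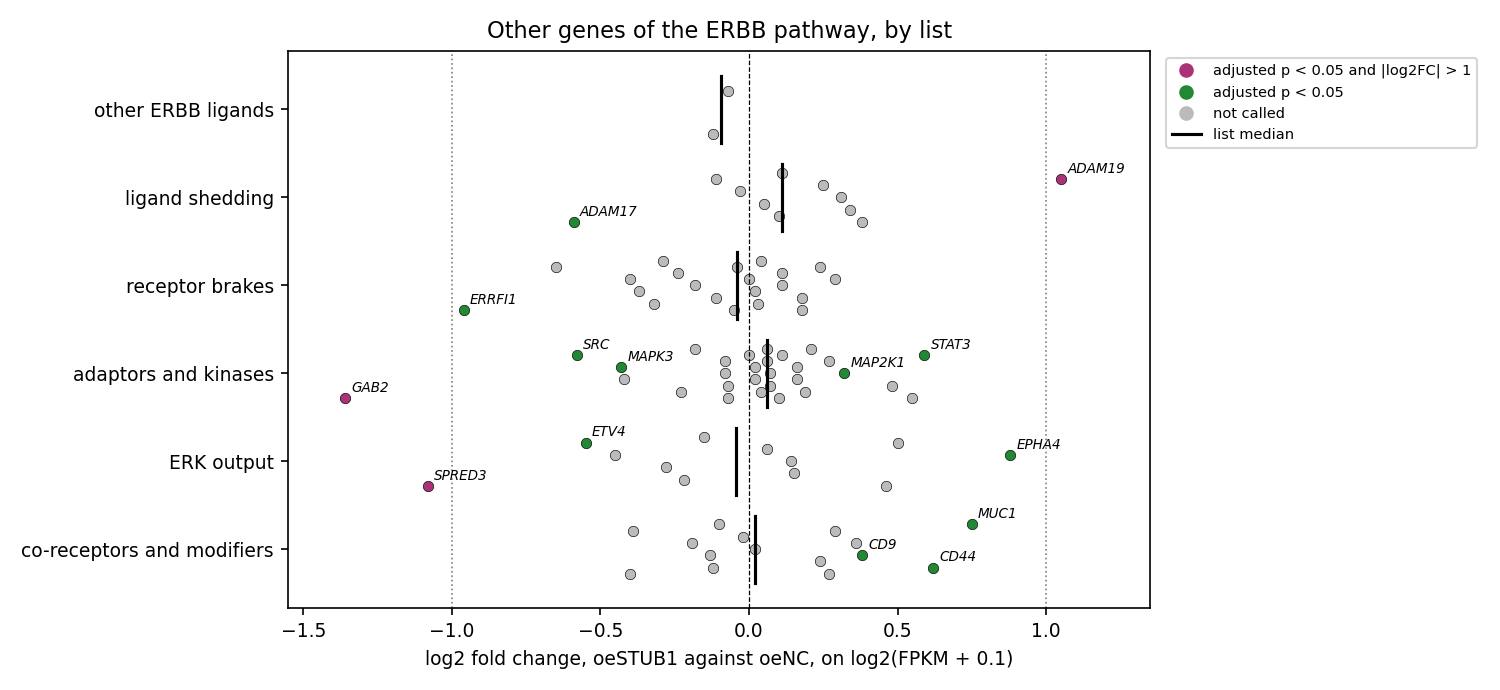
Log2 fold change of oeSTUB1 against oeNC for each tested gene of the 6 pathway lists. Points are genes, coloured by call, short lines are list medians and dotted lines mark 1 and -1. The medians lie between -0.10 and 0.11, and ADAM19, GAB2 and SPRED3 lie past the dotted lines.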

How the data were processed

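RNA of TFK1 cells was measured in 6 libraries, 3 oeNC and 3 oeSTUB1, grouped by their labels. The authors deposited FPKM values per gene symbol. The submitters' processing notes name fastp 0.20.1, HISAT2 2.1.0, HTSeq 0.11.2, R 3.2.0, DESeq2 1.22.2 and the build GRCh38.p13; the annotation and strand setting are not given in the sources used here. Whole fragments were recovered from the FPKM steps for 23569 of 23569 genes, with recomputed FPKM within 4.9e-06 of the deposited values, although a divisor common to all libraries may be missing. They served for depth, floors and the limma-voom alternative.

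The deposited FPKM were compared on the log2(FPKM + 0.1) scale with limma 3.58.1 in R 4.3.3 (lmFit, eBayes with an intensity trend, two-sided), for genes averaging at least 0.1 FPKM. Benjamini-Hochberg adjustment ran over all 15353 genes tested. Confidence intervals are at 95%. Other steps used Python 3.11.15. On simulated data with 200 genes changed 4-fold, 200 were called with the right sign among 15336 tested, with 13 unchanged genes called. The simulation gave all genes the same spread beyond counting error and had no library that stood apart. It thus checks the steps and gives no error rate for these data.

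The members and pathway lists were chosen with earlier results of these data known. Named are the members, STUB1, genes of each list past both thresholds and its most abundant gene, and for each member past both thresholds the 3 nearest genes averaging at least 1 FPKM. Markers and others are named beside the result they touch. There were 15 alternatives, namely each library left out, limma-voom, eBayes without trend, quantile or median-ratio scaling, a replicate block, a pseudocount of 0.01 or 1, and filtering either not at all or at 1 FPKM. Other assays of the study were not analysed here.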

Additional observations from a re-analysis of the deposited data

How the results depend on the processing

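Of 134 values of the 9 tested members under the alternatives, 120 kept their direction and their side of the adjusted p-value of 0.05, 11 lost the call, 2 gained it and 1 turned direction. That one was EGFR without oeSTUB1 replicate 2, at 0.11 on the log2 scale (-0.42 to 0.11 over the libraries left out). Of 298 values of 20 pathway genes, those called or most abundant in a list, 261 kept their direction and side. In 31 the call was lost, in 5 it was gained and 1 turned direction. The gene that turned was ADAM9 without oeSTUB1 replicate 2, to 0.04 (-0.07 to 0.04 over the libraries left out). With a pseudocount of 1, 0 members were higher past both thresholds, in place of 2, because this pseudocount shrinks the fold changes of low genes. With each library left out in turn, members called lower numbered 1 to 2, members called higher 2 to 4, and the log2 fold change of STUB1 was 0.93 to 1.08.

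Replicate numbers marked no shared source in the labels, and same-numbered libraries did not deviate together (correlations -0.0491, -0.0521 and 0.0617). With the replicate number as a block, 2 members were called higher and 2 lower, and BTC had an adjusted p-value of 0.0846 from limma. Depth limited ERBB4, with at most 7 fragments per library, and the ligand BTC. With 3 libraries in a group, an exact permutation test cannot give less than 0.1.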

Other observations

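oeNC replicate 3 was the highest control library for the ligands AREG and EREG and for some genes that growth factor signals induce, which were picked after their values were seen. EGR1, an immediate early transcription factor, was at 0.395 and 0.487 FPKM in oeNC replicates 1 and 2 and at 4.01 FPKM in replicate 3, against 0.629 to 0.961 FPKM in the oeSTUB1 libraries. DUSP6, an ERK phosphatase, was at 2.39, 2.76 and 6.02 FPKM in oeNC and at 2.79 to 2.81 FPKM in oeSTUB1. PHLDA1 was at 10.7, 10.9 and 18.6 FPKM in oeNC and at 17.3 to 19.0 FPKM in oeSTUB1. ERRFI1 and EREG, described above, had the same library on top among the controls, at 79.3 and 16.9 FPKM. Whether these values share a source was not tested.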
